A study of Mus musculus with 6 samples.

Results

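Classical MHC class I molecules and the immunoproteasome were described in mouse small-intestinal epithelium through 10 genes of the 27998 in each count matrix. They were chosen by symbol: the heavy chains H2-K1 and H2-D1, their shared light chain B2m, the peptide transporter and its docking protein (Tap1, Tap2 and Tapbp), the 3 inducible proteasome subunits (Psmb8, Psmb9 and Psmb10) and the transcriptional activator Nlrc5. All 10 symbols were found in every matrix. The series compared epithelial cells of 8-week-old C57BL/6J mice of wild-type genotype (3 libraries) with those of Itgb7-/- mice (3 libraries) by droplet-based 3′ single-cell RNA sequencing. Itgb7 encodes the integrin β7 chain, and the series title names αEβ7-bearing T cells as cells that act on intestinal stem cells. Nothing in the labels says how many animals each library holds, so every p-value below measures only the spread between libraries, which may be technical.

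Every nucleated cell can present peptides from its own proteins on classical MHC class I molecules. The proteasome cuts these proteins, the transporter of Tap1 and Tap2 carries the peptides into the endoplasmic reticulum, tapasin (Tapbp) holds empty heavy chains with B2m beside it, and loaded molecules travel to the cell surface, where CD8 T cells read them. Under interferons the subunits of Psmb8, Psmb9 and Psmb10 replace the constitutive catalytic subunits of Psmb5, Psmb6 and Psmb7 in newly built proteasomes, and Nlrc5 activates class I promoters together with a protein complex that binds the X and Y boxes. Intestinal epithelial cells carry class I molecules, and the T cells between them are largely CD8 cells that use αEβ7 to hold E-cadherin.

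Most of these genes lie close together. In GENCODE M21 (mm10), 7 of the 10 lie on chromosome 17 within 1.352 Mb, all annotated as protein-coding: Tapbp (ENSMUSG00000024308, chr17:33915899-33929292, plus strand), H2-K1 (ENSMUSG00000061232, chr17:33996017-34000347, minus strand), Psmb9 (ENSMUSG00000096727, chr17:34181987-34187764, minus strand), Tap1 (ENSMUSG00000037321, chr17:34187553-34197225, plus strand), Psmb8 (ENSMUSG00000024338, chr17:34197721-34201454, plus strand), Tap2 (ENSMUSG00000024339, chr17:34203527-34216321, plus strand) and H2-D1 (ENSMUSG00000073411, chr17:35262730-35267499, plus strand). B2m (ENSMUSG00000060802) spans chr2:122147686-122153083 on the plus strand. Psmb10 (ENSMUSG00000031897, chr8:105935735-105938444, minus strand) and Nlrc5 (ENSMUSG00000074151, chr8:94434356-94527272, plus strand) share chromosome 8. Heavy chain genes resemble one another and other class I genes in sequence, so the split of reads between H2-K1, H2-D1 and their relatives is uncertain.

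Promoter sequence was taken from RefSeq (GRCm38.p6), where 8 of the 10 members had an entry and Tap2 and Nlrc5 had none. The stretches below are shown because they hold the short elements that class I promoters share. They are written 5′ to 3′ on the strand of the gene, with capitals for every match to a searched motif. H2-K1 is chr17:34000348-34000468 on the minus strand, B2m is chr2:122147537-122147685 and H2-D1 is chr17:35262993-35263022, both on the plus strand. The piece shared by Tap1 and Psmb9 is chr17:34187458-34187487, given on the strand of Tap1, and that of Psmb8 is chr17:34198088-34198117 on the plus strand. Of H2-D1, Tap1 with Psmb9, and Psmb8 only 30 bases each are given, since a longer GENCODE transcript annotates an untranslated region there.
H2-K1: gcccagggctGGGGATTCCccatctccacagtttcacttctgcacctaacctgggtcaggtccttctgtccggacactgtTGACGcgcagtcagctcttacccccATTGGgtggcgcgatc
B2m: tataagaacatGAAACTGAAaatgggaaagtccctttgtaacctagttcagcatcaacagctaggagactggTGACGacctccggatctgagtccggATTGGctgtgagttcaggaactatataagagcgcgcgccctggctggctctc
H2-D1: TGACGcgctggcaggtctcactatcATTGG
Tap1 and Psmb9: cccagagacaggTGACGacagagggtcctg
Psmb8: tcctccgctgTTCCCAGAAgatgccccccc

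In H2-K1, H2-D1 and B2m, TGACG, the core that cyclic-AMP response elements share, is followed after 20 bases by ATTGG, which is the Y box core CCAAT read on the opposite strand. This 30-base block had 23 bases in common between H2-K1 and H2-D1, and 13 and 12 bases in common between B2m and each of them. Across the 250 bases before the start and on both strands, TGACG was in 17.8% of all 32851 promoters in the table and in those of H2-K1, H2-D1, B2m, Tap1 and Psmb9. Tap1 and Psmb9, which are read in opposite directions from starts 225 bases apart, hold the same copy of it. The sequence CCAAT was in 33.8% of promoters and in those of the same 5 members and Tapbp. An interferon-stimulated response element type match (TTCNNTTTC) was in 7.13% of promoters and, among the members, in B2m. A gamma-activated site type match (TTCNNNGAA) was in 7.02% and in Psmb8, and an NF-kB type match (GGGNNTTCC) in 4.98% and in H2-K1 and H2-D1. A match is a description of these letters, and its absence says nothing about the factor.

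The libraries held 28475253 to 76133693 UMIs (unique molecular identifiers, each a captured RNA molecule), with medians of 6079.5 to 22384 per barcode. After filters on quality and doublets 25073 of 26153 barcodes were kept, 410 barcode sequences occurred in more than 1 library, and 24551 epithelial cells in 26 of 27 clusters were summed per library. Stem-, transit-amplifying-, lower-villus enterocyte-, mature enterocyte-, goblet-, Paneth- and enteroendocrine-like classes were named from marker genes after clustering without the members and related genes. Kept cells held 3, 4 and 1 Itgb7 UMIs in wild-type 1, 2 and 3 and 17, 28 and 11 in the libraries labelled Itgb7 KO 1, 2 and 3. That order goes against the label, but a 3′ tag outside the deleted part checks nothing, and the sources used here do not name the part. The groups are therefore called wild-type libraries and libraries labelled Itgb7 KO. By the serial numbers of the deposited files, wild-type 1 and Itgb7 KO 1 form a group, wild-type 2 with Itgb7 KO 2 and 3 another, and wild-type 3 stands alone. Below, 6 values in a row are CPM (UMIs of a gene scaled to a total of 1000000 in the summed cells) in wild-type 1, 2 and 3 and then in Itgb7 KO 1, 2 and 3. Levels of different genes are not compared by size, because the capture of 3′ ends can differ between genes.

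**Figure D1:**
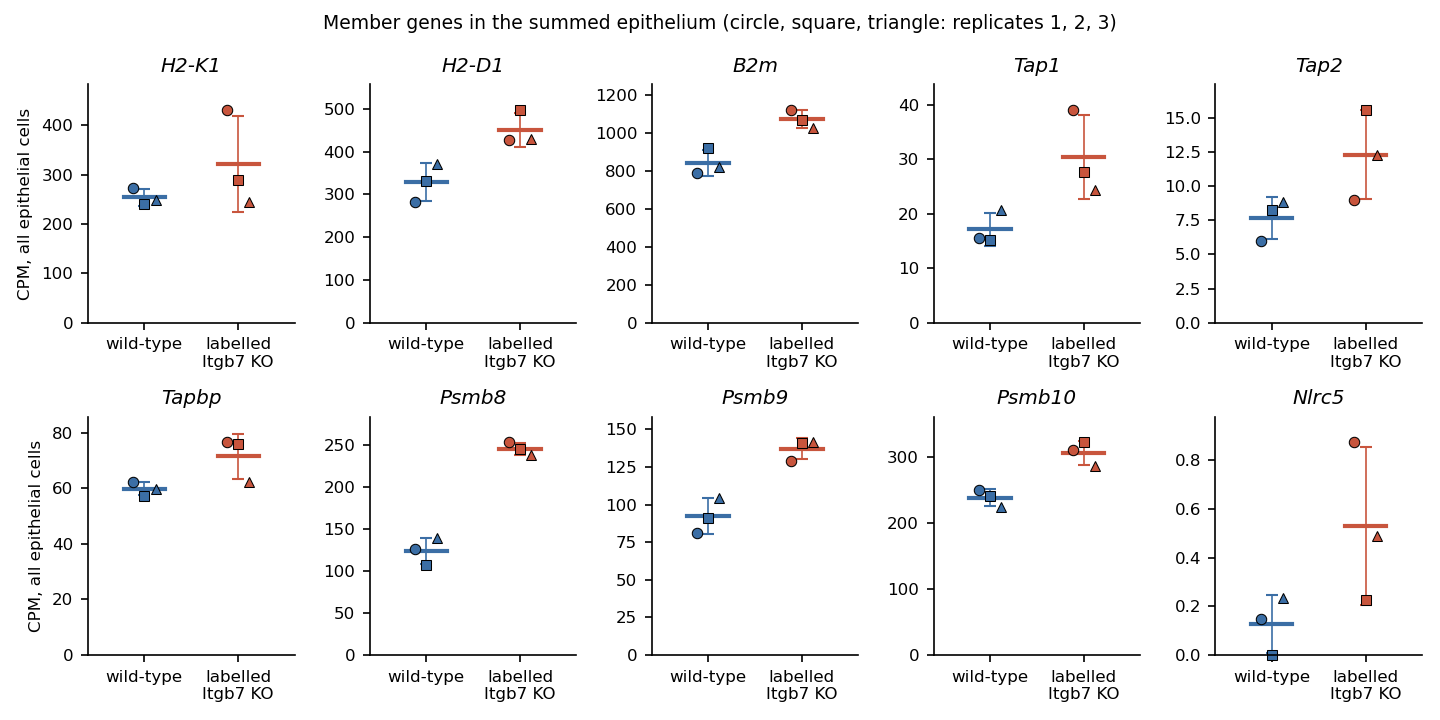
CPM of each of the 10 genes in all epithelial cells of each library (y axis, starting at 0), with the mean (bar) and SD (error bar, n = 3 libraries) of each genotype group. For Psmb8 the libraries labelled Itgb7 KO sit at 238 to 253 CPM and the wild-type libraries at 108 to 139 CPM, whereas for H2-K1 the groups overlap and Itgb7 KO 1 stands above the others at 431 CPM.

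All members but H2-K1 and Nlrc5 were higher in every library labelled Itgb7 KO than in every wild-type library when all epithelial cells were summed, by ratios of group means from 1.20 (Tapbp) to 1.98 (Psmb8). This was 8 of the 10 members, against 2.61% of the 13547 genes tested, and no member was lower in every library labelled Itgb7 KO. None passed the test: in edgeR's quasi-likelihood test with Benjamini-Hochberg adjustment over all genes 0 of 10 members were called at an adjusted p under 0.05, where 0.00738% of genes were (Agpat4, lower in the libraries labelled Itgb7 KO). At an unadjusted p under 0.05 there were 5 members (H2-D1, Tap1, Tap2, Psmb8 and Psmb9), against 3.16% of genes. DESeq2 called Psmb8 and Psmb9, where it called 0.238% of genes. The median log2 fold change of the 10 members was 0.49, and that of all genes tested was −0.01.

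The heavy chain H2-D1, which displays the peptide at the cell surface, read 282, 331 and 371 CPM, then 428, 497 and 429 CPM. Its groups did not overlap, and the log2 fold change was 0.43 ± 0.12 (SE; edgeR adjusted p = 0.947). The other heavy chain, H2-K1, read 274, 239.9 and 249 CPM, then 431, 288 and 244 CPM. Here the groups overlapped: Itgb7 KO 1 was highest and Itgb7 KO 3 lay among the wild-type libraries. Its log2 fold change was 0.32 ± 0.28 (edgeR adjusted p = 0.947), and without Itgb7 KO 1 it was −0.052. Summed as 1 gene, because reads may be split between them, the heavy chains had 0.38 ± 0.17 (edgeR adjusted p = 0.947). B2m, the light chain without which heavy chains do not reach the surface, read 789, 922 and 822 CPM, then 1122, 1071 and 1028 CPM. Those 6 values did not overlap between groups, and the log2 fold change was 0.32 ± 0.14 (edgeR adjusted p = 0.947).

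Peptide transport and loading genes differed more among themselves. Tap1, the transporter's first subunit, read 15.5, 15.2 and 20.6 CPM, then 39.0, 27.7 and 24.3 CPM. All libraries labelled Itgb7 KO were above the wild-type libraries, with Itgb7 KO 1 highest, and the log2 fold change was 0.82 ± 0.25 (edgeR adjusted p = 0.947). Its partner Tap2 read 5.96, 8.22 and 8.86 CPM, then 9.01, 15.6 and 12.3 CPM, so that Itgb7 KO 1 was only just above wild-type 3. The log2 fold change of Tap2 was 0.64 ± 0.17 (edgeR adjusted p = 0.947). Tapbp, the docking protein of the peptide-loading complex, read 62.1, 57.4 and 59.9 CPM, then 76.5, 75.8 and 62.1 CPM. Its lowest value among the libraries labelled Itgb7 KO equalled the highest wild-type value to 3 digits, and the log2 fold change of 0.22 ± 0.17 was little larger than its error (edgeR adjusted p = 0.947).

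Of the proteasome subunits, Psmb8 (the β5i subunit, which cuts after hydrophobic residues) stood farthest apart. It read 126, 108 and 139 CPM, then 253, 245 and 238 CPM, or 124 ± 15.6 against 245 ± 7.43 CPM (mean ± SD, n = 3 libraries each). The gap between the groups was wider than the spread within either, with a log2 fold change of 0.95 ± 0.17 (edgeR adjusted p = 0.719), the 13th lowest p of 13547 genes. DESeq2 gave 0.95 with an adjusted p of 0.000937. Psmb9 (β1i), whose gene is read away from Tap1, had 81.2, 91.0 and 105 CPM, then 129, 141 and 141 CPM. Its groups did not overlap either, with 0.54 ± 0.11 on the log2 scale (edgeR adjusted p = 0.937; DESeq2 0.55, adjusted p = 0.0252). Psmb10 (β2i), the subunit encoded outside chromosome 17, read 250.1, 240.0 and 224 CPM, then 310.4, 322 and 286 CPM. The lowest library labelled Itgb7 KO was above the highest wild-type library, and the log2 fold change was 0.32 ± 0.16 (edgeR adjusted p = 0.947).

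Nlrc5 was barely detected. It had 11, 0 and 14 UMIs in wild-type 1, 2 and 3 and 52, 12 and 13 UMIs in Itgb7 KO 1, 2 and 3, or 0.15, 0 and 0.235 CPM, then 0.874, 0.228 and 0.490 CPM. The 0 in wild-type 2 allows up to 0.0511 CPM (3 counts of its 58723437 UMIs, counting error only). Itgb7 KO 2 lay below wild-type 3, so the groups overlapped, and the fitted log2 fold change was 2.03 ± 0.89 (edgeR adjusted p = 0.947), or 1.25 without Itgb7 KO 1. In single classes Nlrc5 was too low to be tested.

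Within the 2 groups of serial numbers that held both genotypes, all 10 members were higher in each library labelled Itgb7 KO than in the wild-type library beside it. So were 23.2% of the 13547 genes tested, with 70.3% in the first group and 31.6% in the second. The ratios of KO to wild-type for Psmb8 were 2.01 in the first group and 2.25 in the second, those for Psmb9 were 1.59 and 1.55, and those for Tap1 were 2.52 and 1.71. H2-K1 had 1.57 in the first group and 1.11 in the second, and B2m had 1.42 and 1.138. H2-D1 had 1.52 and 1.40, Tap2 1.51 and 1.69, Tapbp 1.23 and 1.20, and Psmb10 1.24 and 1.27. So the first group, of wild-type 1 and Itgb7 KO 1, had the larger ratio for Tap1, H2-K1, H2-D1, B2m, Tapbp and Psmb9. The second had it for Psmb8, Tap2 and Psmb10, and for Tapbp, Psmb9 and Psmb10 the groups were close.

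Across the 6 libraries the members varied together. Of the 45 pairs of members, 28 had a Pearson correlation of log2(CPM + 1) above 0.7, with a median of 0.78, from −0.01 (H2-K1 with Tap2) to 0.96 (H2-D1 with Psmb9). These are descriptions over 6 libraries that share the genotype split, and no test was made of them.

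The cell classes differed in their levels of the members, which is described here without a test because the classes come from the same cells. From stem-like to mature enterocyte-like cells, 9 members were higher in 6 of 6 libraries, and Nlrc5 was too low to compare. The share of all genes that did the same was not counted, so this is not shown to be particular to the members. The ratio of mature to stem ran from 1.85 to 2.98 for Tap2, from 1.72 to 2.47 for Tap1, from 1.47 to 1.81 for Psmb8 and from 1.38 to 1.98 for Psmb9. It was smallest for B2m, at 1.02 to 1.27. In the wild-type libraries B2m averaged 1105 ± 132 CPM in mature enterocyte-like, 969.7 ± 50.0 in stem-like, 499 ± 29.8 in goblet-like, 429 ± 156 in enteroendocrine-like and 300.3 ± 123 CPM in Paneth-like cells (mean ± SD, n = 3 libraries). The enterocyte-like, stem-like and transit-amplifying-like values of B2m lay above those of goblet-like cells in all 3 libraries, while those of goblet- and enteroendocrine-like cells, and of enteroendocrine- and Paneth-like cells, overlapped.

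Heavy chains followed another order. Among the 7 classes tested, which leave out the few tuft-like cells, wild-type goblet-like cells had the highest mean of H2-K1 (328 ± 18.3 CPM) and of H2-D1 (431 ± 71.0 CPM), although neither was separated from the next class by the spread of libraries. The lowest mean of H2-K1 among these 7 was in transit-amplifying-like cells (215 ± 29.1 CPM) and that of H2-D1 in Paneth-like cells (188 ± 101.1 CPM). Goblet-like cells thus combined the highest heavy chain means of the 7 classes with a B2m mean below that of the enterocyte-like classes. Tapbp was highest in enteroendocrine-like cells (82.2 ± 13.2 CPM), again not apart from the next class. Psmb8 was 165 ± 27.5 CPM in lower-villus enterocyte-like cells, against 80.9 ± 14.0 in the goblet-like and 26.9 ± 17.1 CPM in the Paneth-like class, and Psmb9 was 126 ± 11.8, 40.3 ± 6.64 and 19 ± 5.05 CPM in mature enterocyte-, goblet- and Paneth-like cells. For Psmb8, Psmb9 and Psmb10 the Paneth-like values lay apart from those of the class next above. Paneth-like cells were few, with 25 and 28 in wild-type 2 and 3. They also differed in depth: wild-type 1 had 95 with 10022769 UMIs, against 365498 and 399800 UMIs in wild-type 2 and 3. Itgb7 KO 1 likewise had 71 with 5160782 UMIs, against 24 with 370735 UMIs in Itgb7 KO 2. No marker of another cell type was held by 12 of the 95 in wild-type 1 and 18 of the 71 in Itgb7 KO 1. In wild-type 2 and 3 it was 20 of 25 and 23 of 28. Whether depth accounts for these markers was not tested. Paneth-like H2-D1 read 72.0 CPM in wild-type 1 against 238 and 255 CPM, while Psmb8 read 24.7 against 10.9 and 45.0 CPM. How far this depth shaped the Paneth-like means was not tested.

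**Figure D2:**
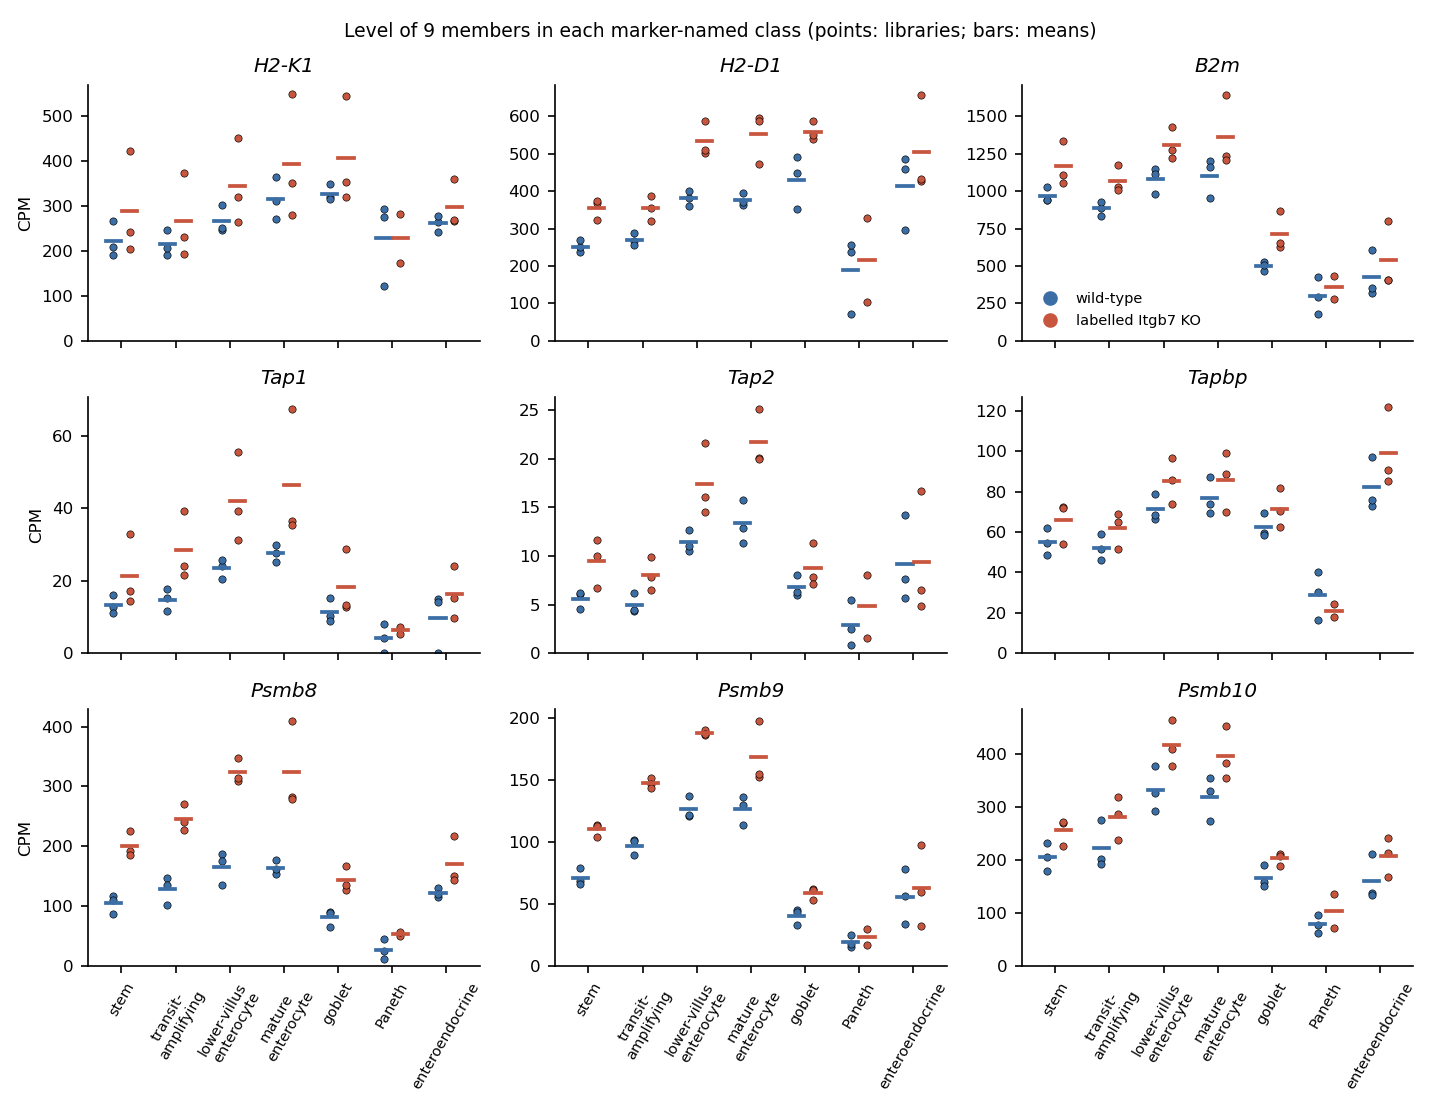
CPM of 9 members (all but Nlrc5) in each of 7 marker-named classes, with a point for each library and a bar for the mean of each genotype group; libraries with fewer than 20 cells of a class are left out, so the Paneth-like class has 2 libraries labelled Itgb7 KO. Psmb8, Psmb9 and Psmb10 are lowest in Paneth-like cells and highest in the enterocyte-like classes, whereas H2-D1 has its highest wild-type mean, 431 CPM, in the goblet-like class of the 7 shown.

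Genotype was then compared within each class. In stem-like cells Psmb8 read 117, 87.2 and 109.7 CPM, then 226, 191 and 185 CPM, and Psmb9 read 68.5, 65.5 and 78.5 CPM, then 114, 104 and 112 CPM. Neither gene overlapped between the groups. H2-D1 in the same cells read 236, 249.9 and 269 CPM, then 369, 373 and 322 CPM, also with no overlap. H2-D1, B2m, Tap2, Psmb8 and Psmb9, 5 of the 9 members tested, had every library labelled Itgb7 KO above every wild-type library in stem-like cells, against 3.82% of genes. The edgeR test called 0 of 9 members there, where it called 0.00981% of genes, and 4 members had an unadjusted p under 0.05, against 3.29% of genes. A block for the replicate number in edgeR made Psmb8 a call (0.93, adjusted p = 0.0422), where it called 0.0383% of genes. The numbers were taken as pairs from these same data, which do not settle the pairs of replicates 2 and 3. DESeq2 without the block also called Psmb8 (0.93, adjusted p = 0.0134), where it called 0.0251% of genes. The median log2 fold change of the 9 members was 0.47 in stem-like cells, and without Itgb7 KO 1 it was 0.21.

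Transit-amplifying-like cells were named from genes of dividing cells. Such genes were also among the leading genes of a lower-villus enterocyte-like and a stem-like cluster. The stem markers Ascl2 and Lgr5 were among those of a transit-amplifying-like cluster. In the transit-amplifying-like class Tap1 read 15.3, 11.6 and 17.6 CPM, then 39.4, 24.2 and 21.7 CPM, and Psmb8 read 147, 100.8 and 135 CPM, then 271, 241 and 227 CPM. Both were without overlap, as were 6 of 9 members (those of stem-like cells and Tap1) against 2.95% of genes. By edgeR 0 of 9 members were called against 0.0173% of genes, and 5 had an unadjusted p under 0.05, against 2.73% of genes. In DESeq2 0 members were called as well. The median log2 fold change of the 9 was 0.36, and without wild-type 1 it was 0.57.

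In lower-villus enterocyte-like cells Psmb8 read 186, 134 and 175 CPM, then 347, 309.7 and 314 CPM. Psmb9 read 120.5, 121 and 137 CPM, then 189.8, 186 and 187 CPM, so the libraries labelled Itgb7 KO had an SD of 1.85 CPM. H2-D1 read 361, 381 and 401 CPM, then 503, 587 and 510.3 CPM. As in transit-amplifying-like cells, 6 of 9 members did not overlap, against 3.38% of genes. By edgeR 0 of 9 were called (0.00915% of genes; 5 members and 3.82% of genes at an unadjusted p under 0.05). DESeq2 called 3 of them, Psmb8 (0.98, adjusted p = 0.00184), Psmb9 (0.59, adjusted p = 0.0170) and H2-D1 (0.50, adjusted p = 0.0212), where it called 0.129% of genes.

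Mature enterocyte-like cells had the most members apart, 7 of 9 against 2.9% of genes, with Psmb10 added to those named for transit-amplifying-like cells. Psmb8 read 177, 154 and 161 CPM, then 409, 282 and 279 CPM, a log2 fold change of 1.0 ± 0.21 (edgeR adjusted p = 0.930). Tap2 read 11.4, 15.8 and 12.9 CPM, then 20.1, 25.1 and 19.98 CPM (0.73 ± 0.17, edgeR adjusted p = 0.930). Itgb7 KO 1 was the highest library for Psmb8 but not for Tap2. The edgeR test called 0 of 9 members and 0.0% of genes in these cells, with 5 members and 4.12% of genes at an unadjusted p under 0.05. DESeq2 here made a call of Psmb8 (1.02, adjusted p = 0.0363; 0.0187% of genes).

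Among secretory classes, goblet-like cells had 4 of 9 members apart (H2-D1, B2m, Psmb8 and Psmb9), against 2.52% of genes. Goblet-like B2m read 526, 467 and 505 CPM, then 868, 627 and 655 CPM, a log2 fold change of 0.55 ± 0.17 (edgeR adjusted p = 1), with no overlap. Psmb8 read 89.6, 64.7 and 88.4 CPM, then 167, 127 and 135 CPM, also with no overlap. In edgeR 0 of 9 members were called (0.00903% of genes; 4 members and 2.06% of genes at an unadjusted p under 0.05), whereas Psmb8 was a call in DESeq2 (0.85, adjusted p = 0.0383; 0.217% of genes).

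Paneth-like cells were compared as 3 wild-type libraries against Itgb7 KO 1 and 2, since Itgb7 KO 3 had 18 of them, under the minimum of 20. Psmb8 was the 1 member of 6 tested that did not overlap, at 24.7, 10.9 and 45.0 CPM and then 48.8 and 56.6 CPM, against 0.325% of the genes. Few counts lie behind some of these values: Psmb8 had 248, 4 and 18 UMIs in wild-type 1, 2 and 3 and 252 and 21 in Itgb7 KO 1 and 2. Its log2 fold change was 1.16 ± 0.50, and edgeR called 0 of 6 members (0.0% of genes; 1 member and 0.361% of genes at an unadjusted p under 0.05), as did DESeq2. The replicate block in edgeR made Psmb8 a call (1.17, adjusted p = 0.000541), where 0.422% of genes were called. In that fit wild-type 3 stood alone in its block and was in effect left out. So wild-type 1 and 2 were set against Itgb7 KO 1 and 2. In enteroendocrine-like cells Psmb8 was likewise the 1 member of 7 that did not overlap, against 1.98% of genes, at 130.3, 114 and 120.3 CPM and then 217, 151 and 143 CPM. There the edgeR test called 0 of 7 members and 0.0% of genes, with 0 members and 1.02% of genes at an unadjusted p under 0.05. Calls of members by DESeq2 numbered 0 too. The median of the 7 members there, 0.28, ran from 0.066 without Itgb7 KO 1 to 0.68 without wild-type 1, and without Itgb7 KO 1 the fold changes of B2m, H2-K1 and Psmb9 were below 0.

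**Figure D3:**
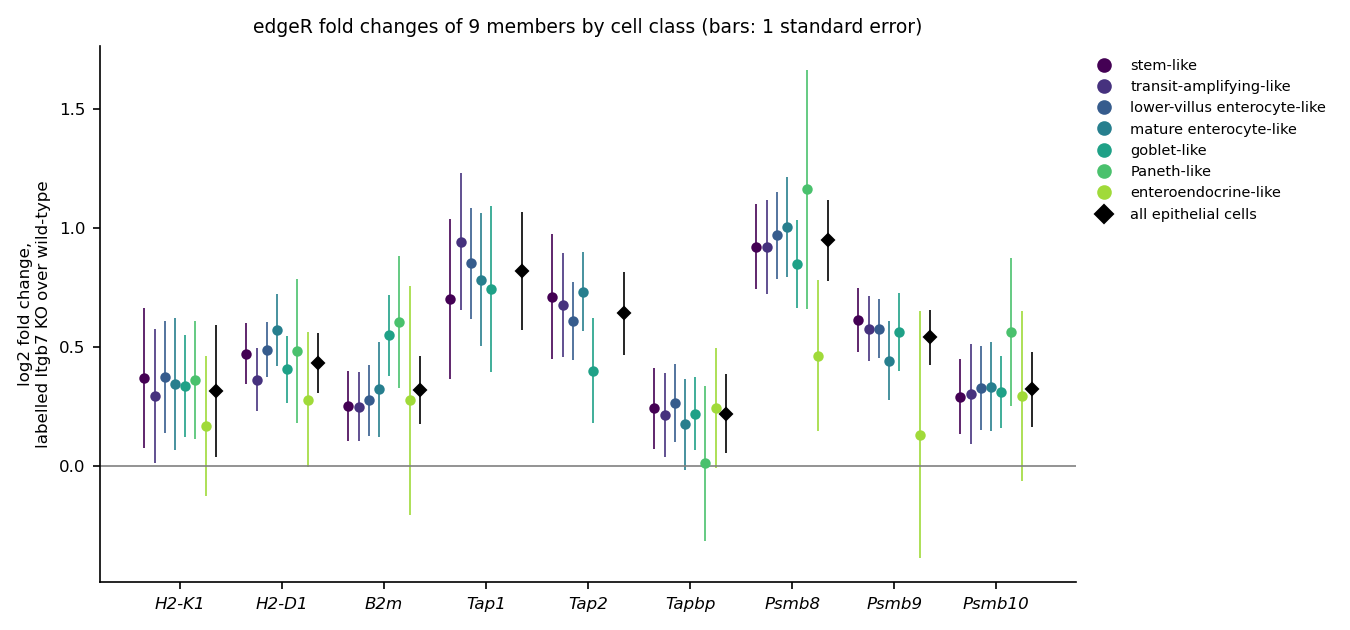
Log2 fold changes (libraries labelled Itgb7 KO over wild-type) of 9 members in 7 classes and in all epithelial cells, from edgeR, with bars of 1 standard error; a missing point is a member too low to be tested in that class. All points lie above 0, Psmb8 is between 0.46 and 1.16, and the lowest point is Tapbp at 0.014; without Itgb7 KO 1, H2-K1 is below 0 in 4 classes and in all epithelial cells.

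Over the 7 classes 58 fits of a member were made and all 58 log2 fold changes were above 0, with 24 at an unadjusted p under 0.05, where 0.361 to 4.12% of genes were by class. The class medians of the members were 0.28 in enteroendocrine-like cells to 0.52 in Paneth-like cells, while the medians of all genes tested lay between −0.01 and 0.00. These fits share libraries and are not independent of each other. The direction of H2-K1 depended on Itgb7 KO 1: without that library its log2 fold change was −0.062 for stem-like, −0.10 for transit-amplifying-like, −0.016 for mature enterocyte-like and −0.10 for enteroendocrine-like cells.

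Whether the difference between genotypes itself differed between mature enterocyte-like and stem-like cells was tested as an interaction, with the library as a block. No member was called, where 0.0271% of 11060 genes were, and the adjusted p of the members in edgeR was at least 0.963. The difference of log2 fold changes (mature minus stem) was 0.06 ± 0.11 for Psmb8, −0.18 ± 0.11 for Psmb9, 0.10 ± 0.09 for H2-D1 and 0.10 ± 0.18 for Tap1 (± SE). Differences of the size of these errors were not detectable with 6 libraries.

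Single clusters were also compared, since a class can pool several. In the 23 clusters with enough cells in all 6 libraries, every library labelled Itgb7 KO exceeded every wild-type library for Psmb8 in 23, for H2-D1 in 22, for B2m in 20 and for Psmb9 in 19 clusters. Tap1 and Tap2 did so in 11 clusters each, Psmb10 in 9, Tapbp in 3, and H2-K1 and Nlrc5 in 2 each. Over all 5111 genes with a mean of at least 20 CPM the share of such gene-by-cluster pairs was 3.69%, the median gene had 0 clusters, and 3245 genes had 0. Psmb8 was the 1 gene of the 5111 that did so in 23 clusters. The 8 genes with 20 or more clusters were Psmb8, H2-Ab1, H2-D1, Cd74, Psme2, B2m, 2210407C18Rik and AW112010; those that are no members were named after their values were seen. Cd74 and H2-Ab1 belong to MHC class II presentation, and Psme2 encodes a subunit of a proteasome activator. The clusters share the same 6 libraries, so their count is no number of independent comparisons.

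**Figure D4:**
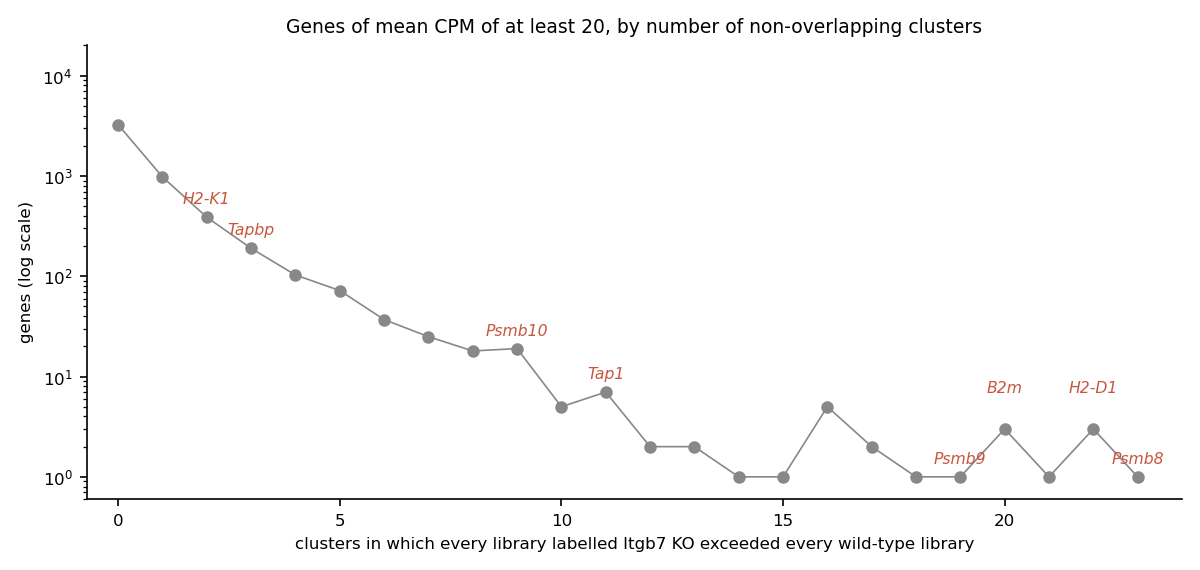
Number of genes (y axis, log scale) against the number of clusters, of 23, in which every library labelled Itgb7 KO exceeded every wild-type library (x axis), for the 5111 genes with a mean of at least 20 CPM; 8 members that meet this mean are written above their place. The median gene is at 0, and Psmb8, H2-D1, B2m and Psmb9 are at 23, 22, 20 and 19 clusters.

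The transcripts of each catalytic pair were described as a share within each library, which does not depend on how the libraries are scaled. Such a share is of RNA and does not show which subunits sit in proteasomes. Because capture can differ between the genes of a pair, shares are compared only between libraries. The share of Psmb8 in the UMIs of Psmb8 and Psmb5 was 31.8, 29.6 and 36.7% in wild-type 1, 2 and 3 and 46.5, 47.4 and 51.4% in Itgb7 KO 1, 2 and 3. The means of 32.7 ± 3.63% and 48.5 ± 2.58% differed by 15.7 percentage points, and the groups did not overlap. For Psmb9 with Psmb6 the shares were 18.1, 18.5 and 21.3%, then 24.03, 24.06 and 24.88%, a difference of 5.04 points. For Psmb10 with Psmb7 they were 57.1, 53.1 and 53.9%, then 59.8, 59.8 and 58%, a difference of 4.48 points. Each pair gave p = 0.1 in the exact 2-sided permutation test over libraries, which is the smallest p that 3 against 3 allows, and the value adjusted over the 3 pairs was 0.1 as well. Psmb5, Psmb6 and Psmb7 themselves had log2 fold changes of 0.01 ± 0.19, 0.11 ± 0.12 and 0.07 ± 0.13 (edgeR adjusted p of 0.947 or more). In each library the depth behind a share was at least 12283 UMIs.

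By class, the share of Psmb8 in stem-like cells was 27.8, 24.9 and 29.8%, then 40.4, 38.7 and 42.5%, and in mature enterocyte-like cells 40.3, 41.2 and 43.9%, then 58.8, 54.2 and 59.3%. Both were without overlap. It did not overlap in goblet-like cells either, with means of 26.7 ± 4.34% and 39.3 ± 2.47%. In Paneth-like cells, where single libraries had as few as 25 UMIs of the pair, the shares overlapped at 25.8, 9.09 and 34.6%, then 43.3, 31.3 and 28.0%.

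**Figure D5:**
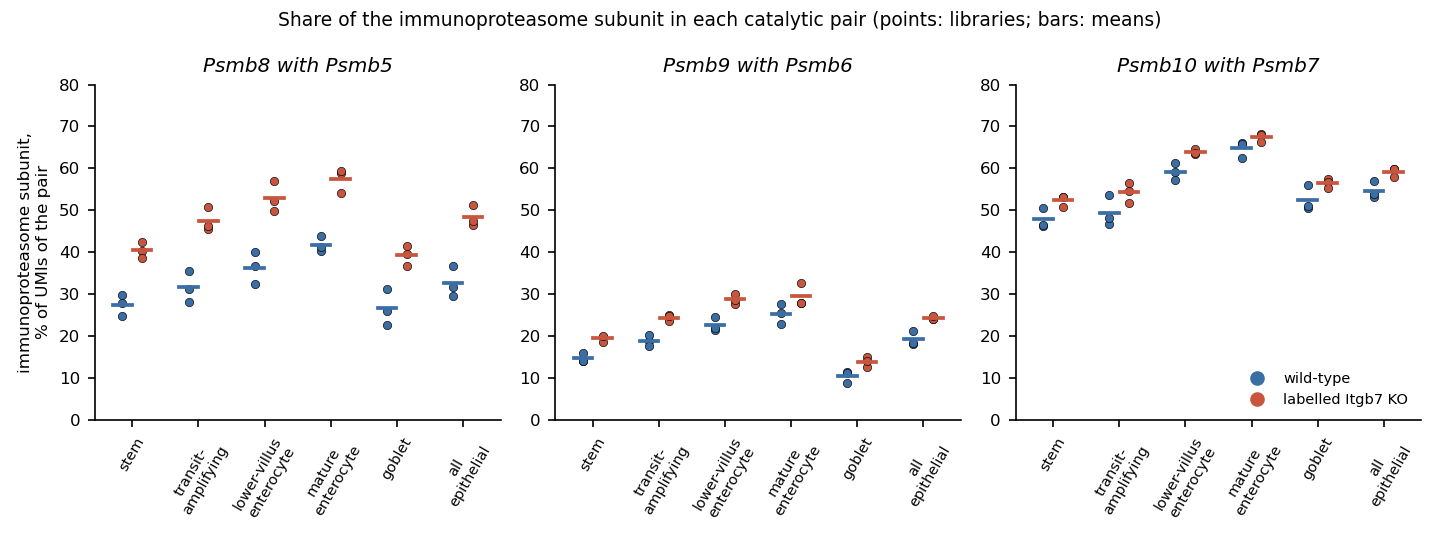
Share of the immunoproteasome subunit in the UMIs of each catalytic pair (y axis, %), in 5 classes and in all epithelial cells, with a point for each library and a bar for the mean of each genotype group; Paneth- and enteroendocrine-like cells are left out. For Psmb8 with Psmb5 the groups do not overlap in any of the 5 classes shown, whereas they overlap in the Paneth-like cells not shown, and the mean in all epithelial cells is 32.7% in the wild-type libraries and 48.5% in the libraries labelled Itgb7 KO.

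To see whether more cells carried the transcripts, each cell was thinned to 2000 UMIs, since depth differed between libraries. Then a Psmb8 UMI was found in 23.4, 18.2 and 22.4% of wild-type epithelial cells and in 36.9, 36.1 and 35.5% of those labelled Itgb7 KO, with no overlap. Without thinning the means were 76.2 and 81.7%, and the groups overlapped. The thinned means were 48.5 and 57.97% for H2-D1, 78.7 and 85.0% for B2m, 16.4 and 22.7% for Psmb9 and 3.20 and 5.68% for Tap1, each without overlap. H2-K1, Tap2, Tapbp, Psmb10 and Nlrc5 overlapped. This depended on depth, since Psmb10 and Nlrc5 did not overlap in cells thinned to 4000 UMIs, where Nlrc5 was in at most 0.488% of the cells of a library. In thinned cells at least 3 of the 10 members were seen in 54.3, 50.1 and 52.3% of wild-type cells and in 73.3, 69.0 and 63.5% of cells labelled Itgb7 KO. Thinning to 2000 UMIs left out 66 cells of Itgb7 KO 3. Genes other than the members were not thinned, so no share over all genes stands beside these values. No class known to lack class I transcripts was present, so the share that free RNA alone would give could not be set beside these values.

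The rest of the pathway was read from lists, and edgeR called 0 of their genes in any class. In the summed epithelium the median log2 fold changes were 0.07 for the 3 constitutive catalytic subunits, 0.14 for 11 other subunits of the proteasome core and 0.14 for 9 activator and assembly factors. They were 0.10 for 9 chaperones and trimming enzymes of the endoplasmic reticulum, 0.11 for 8 genes of the complex on class I and class II promoters, and 0.11 for 20 genes of interferon receptors and signalling. All were below the 0.49 of the members. Psme1 and Psme2, the 2 subunits of the interferon-inducible activator, read 269, 254 and 261 CPM, then 365, 321 and 294 CPM, and 403, 445 and 458 CPM, then 543, 613 and 618 CPM. Both were without overlap, with 0.29 ± 0.18 and 0.41 ± 0.12 on the log2 scale (edgeR adjusted p = 0.947 each). This was not particular to them. The constitutive subunit Psmb6, the core subunits Psmb1, Psmb2 and Psmb3, and Pomp of the assembly factors were also higher without overlap. Psmb5, Psmb7, Psma7 and Psme3 overlapped. Over all genes tested, 2.61% had every library labelled Itgb7 KO above every wild-type library. Calr, a chaperone of the loading complex, read 732, 662 and 660.2 CPM, then 899.6, 667 and 497 CPM, and Pdia3, its partner, had 0.02 ± 0.12.

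Of the interferon signalling genes, Irf1, a factor that activates class I genes, read 47.4, 43.3 and 45.8 CPM, then 55.5, 64.5 and 52.8 CPM. Its groups did not overlap, with 0.30 ± 0.14 (edgeR adjusted p = 0.947). The genes of all lists with an unadjusted p under 0.05 were Tapbpl (0.38 ± 0.10), Psme2, Socs1 (0.51 ± 0.18) and Irf7 (1.08 ± 0.43), and none passed the adjusted test in edgeR. Irf7 was called in goblet-like cells by DESeq2 and in Paneth-like cells by edgeR with the replicate block. Receptor genes Ifngr1 and Ifngr2 had 0.04 ± 0.12 and 0.19 ± 0.13. Of 6 interferon genes looked up, Ifnl2 had 1 UMI in all and the others, among them Ifng and Ifnb1, had 0.

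Genes other than the members were also ordered by how alike their levels over the 6 libraries were to the mean of the members. The first 10 were Ghrl (Pearson r = 0.97), Lgals9, Nmi, Ifi35, Plac8, Sdf2l1, Ndufb6, Psme1 (also in the lists above), Unc93b1 and Ifi27l2b (0.92). They were ranked by r of log2(CPM + 1) among genes with a mean of at least 20 CPM, over 6 libraries and with no test. Lgals9, the lectin galectin-9, read 324, 351 and 383 CPM, then 497, 451 and 413 CPM. Ghrl, the ghrelin gene of enteroendocrine cells, read 33.4, 40.1 and 57.5 CPM, then 168, 258 and 136 CPM. Beside it, enteroendocrine-like cells numbered 25, 68 and 68, then 60, 133 and 129, and their part in the level of Ghrl was not tested.

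Leukocytes express the members too, so their markers were summed in the same cells. The 12 T cell markers in the matrix, all of them detected, summed to 0.152 to 1.21 CPM in wild-type libraries and to 0.0665 to 0.187 CPM in libraries labelled Itgb7 KO. Gzma, the most abundant, was 0 to 0.638 CPM in the first and at 0 in the second. The 6 B and plasma cell markers, all detected and led by Cd79b, summed to 1.65 to 1.86 and 1.43 to 2.28 CPM. The 9 myeloid markers, led by Cd68 with Itgax and C1qc at 0, summed to 3.88 to 6.92 and 2.73 to 6.03 CPM. The 6 stromal and endothelial markers, led by Pecam1 with Col1a2, Col3a1 and Cdh5 at 0, summed to 0.312 to 0.749 and 0.545 to 1.34 CPM. T cell markers summed lower in Itgb7 KO 1 and 2 than in every wild-type library. Without the barcodes that held any of these markers the median log2 fold change of the members was 0.49 in the summed epithelium and 0.46 in stem-like cells. In enteroendocrine-like cells it was 0.64, but there wild-type 1 was left with 13 cells and dropped out of the fit, and without wild-type 1 alone it was 0.68.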

How the data were processed

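Single-cell 3′ libraries of small-intestinal epithelial cells (3 wild-type and 3 labelled Itgb7 KO) were analysed from the deposited count matrices, which hold raw UMI counts (whole numbers) by gene and barcode. The submitters' processing notes name bcl2fastq 2.17.1.14, Cell Ranger 2.1.1, Seurat and the build mm10. The lowest UMI total of a barcode differed between the deposited matrices, from 1417 to 13621, so they had been filtered unequally before deposit, and a common minimum was an alternative. The members and all gene lists were chosen with earlier results of these data known.

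Barcodes were kept with 500 or more genes, 1000 or more UMIs and no more than 25% of UMIs from mitochondrial genes, and those with the highest Scrublet scores (0.8% per 1000 barcodes, 972 in all) were removed as doublets, since its automatic threshold marked between 0.192 and 7.573% of a library. Cells were clustered with scanpy 1.11.5 (2000 variable genes without 206 members and related genes, 30 components, 15 neighbours, Leiden resolution 1.5). Clusters were named from marker genes; 3 stayed unnamed, 3 were tied between names, and 1, led by mitochondrial genes, was left out of the summed epithelium. The search for supporting markers was widened to the first 100 genes of a cluster after the clusters were seen.

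For each class, the UMI counts of its cells were added up in every library that had at least 20, and tested with edgeR 4.0.16 (quasi-likelihood, TMM, filterByExpr, genotype only), with adjustment over all genes at 0.05. On simulated counts 65% of genes changed 2-fold were recovered in stem-like, 51% in mature enterocyte-like and 64% in all epithelial cells. The simulation also held genes with a larger change, and took the spread of each gene from the trend over all genes. It drew genes independently, without the deviations that real libraries share, so these percentages do not give the power of the real fits. Alternatives were no filter, RLE scaling, DESeq2 1.42.0, blocks by replicate or serial number, each library left out, other cell sets and summed heavy chains. Shares were compared with an exact permutation test. Same-numbered libraries deviated together (correlations 0.88, 0.63 and 0.53 over 5111 genes), and the numbers were taken to pair them from the data alone. These values do not settle the pairs of replicates 2 and 3. Wild-type 2 correlated more with Itgb7 KO 3 (0.77), and wild-type 3 correlated with Itgb7 KO 2 (0.528) nearly as much as with Itgb7 KO 3 (0.533). All 10 members were named in each comparison, with the genes of each list that were called and its 4 most abundant. Intervals and floors cover counting error only.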

Additional observations from a re-analysis of the deposited data

How the results depend on the processing

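With 6 libraries of unequal depth, and wild-type 3 alone in its serial group, the number of members called depended on the test. DESeq2 called 3 members in lower-villus enterocyte-like cells, 2 in the summed epithelium and 1 each for the stem-, mature enterocyte- and goblet-like classes. The serial numbers as a block of 3 groups, which in effect leaves out wild-type 3, gave 2 in transit-amplifying-like cells and 1 each for the stem-, lower-villus enterocyte-, mature enterocyte-, goblet- and Paneth-like classes and the summed epithelium, and the block of 2 groups gave 1 in stem-like and in mature enterocyte-like cells. The replicate block gave 1 member (Psmb8) in stem-like and in Paneth-like cells and 1 gene of the pathway lists (Irf7) in Paneth-like cells, and it changed no other call. In Paneth-like cells, where Itgb7 KO 3 was left out, the replicate block and the block of 3 groups were the same fit. Of the lists, DESeq2 called 1 gene and the block of 3 groups 3 genes in goblet-like cells, and that block 1 in Paneth-like cells. In the other 109 of 125 alternatives 0 members were called, those without 1 library included. The cause of these differences was not tested.

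The median of the members, with 1 library left out, ranged from 0.21 to 0.57 in stem-like, from 0.31 to 0.57 in transit-amplifying-like and from 0.066 to 0.68 in enteroendocrine-like cells. It was 0.54 in transit-amplifying-like cells with the block of 3 groups and 0.52 with the common UMI minimum, which left Itgb7 KO 3 with 8 cells and so out of the fit (0.49 without that library alone). It was 0.64 in enteroendocrine-like cells without barcodes that held markers of other cell types, where wild-type 1 dropped out too (0.68 without that library alone). The fold change of H2-K1 changed sign without Itgb7 KO 1, ranging from −0.062 to 0.57 in stem-like, −0.10 to 0.49 in transit-amplifying-like, −0.016 to 0.54 in mature enterocyte-like, −0.10 to 0.32 in enteroendocrine-like and −0.052 to 0.50 in all epithelial cells. Also reversed in part were Tapbp in Paneth-like cells (−0.42 to 0.22, and −0.062 with all variable genes in the clustering), and B2m (−0.27 to 0.82) and Psmb9 (−0.48 to 0.69) in enteroendocrine-like cells. The difference between mature enterocyte-like and stem-like cells ran from −0.080 to 0.095 for H2-K1 (0.00091 in DESeq2), −0.14 to 0.10 for Tap2, −0.0055 to 0.18 for B2m, −0.064 to 0.19 for Tap1, −0.026 to 0.12 for Psmb10 and −0.041 to 0.14 for Psmb8. Thinned to 4000 UMIs, the share of cells with a UMI was higher in the libraries labelled Itgb7 KO by 3.09 percentage points for B2m, 4.47 for Tap1, 1.56 for Tap2, 20.5 for Psmb8, 10.4 for Psmb9 and 0.246 for Nlrc5. No alternative reversed the pooled immunoproteasome shares.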

Other observations

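Tuft-like cells, chemosensory cells of the epithelium, were too few to be tested, with 13, 12 and 17 cells in wild-type 1, 2 and 3 and 9, 30 and 24 cells in Itgb7 KO 1, 2 and 3. In them H2-D1 read 373, 684 and 556 CPM, then 762, 767 and 741 CPM in the same order of libraries, which did not overlap. Psmb8 read 147, 59.5 and 82.6 CPM, then 204, 126 and 155 CPM, with Itgb7 KO 2 below wild-type 1. Psmb9 read 109, 59.5 and 110.2 CPM, then 86.4, 56.1 and 40.7 CPM. These Psmb9 values rest on 5 to 37 UMIs a library. Their mean was 92.8 CPM in the wild-type libraries and 61.1 CPM in those labelled Itgb7 KO, and the groups overlapped, with Itgb7 KO 1 above wild-type 2.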
